A study of Mus musculus with 5 samples.

Results

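The genes described here are 32 genes of protein folding, quality control and stress sensing in the endoplasmic reticulum (ER), measured in mouse GL261 glioma cells that received sodium propionate or sodium chloride. They were taken from a fixed list of gene symbols and found by reference gene name in the 5 deposited transcript files, where transcripts of 55397 genes are listed. All 32 were found, and all 32 were among the 13881 genes tested, which had a mean level of at least 1 TPM (the transcript level that StringTie gives, scaled by transcript length and by the total of the library). GL261 is an established mouse glioma line, labelled as tumour cells. One group received sodium propionate, the salt of a short-chain fatty acid that gut bacteria release, and the other received sodium chloride as the control salt. Both salts were labelled 1 uM, a dose whose unit could not be checked and which is low for a short-chain fatty acid, and RNA was taken 24 h later. The chloride group had 3 libraries (replicates 1, 2 and 3) and the propionate group 2 (replicates 2 and 3). All libraries came from this single line and no group was untreated. Nothing in the labels says that the replicates were separate cultures, so the p-values speak only of how these libraries vary, and that variation may be technical.

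Proteins bound for the cell surface or for secretion enter the ER through the Sec61 channel, receive N-linked glycans, and fold with the help of chaperones, lectins and disulfide isomerases. Chains that fail to fold are passed back to the cytosol and degraded, a route called ER-associated degradation. When unfolded protein accumulates, the membrane sensors Ire1 (gene Ern1), Perk (Eif2ak3) and Atf6 start the unfolded protein response, in which Atf6 and the spliced form of Xbp1 raise transcription of many chaperone and degradation genes.

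The 5 libraries held between 7.19 and 7.63 Gb of aligned sequence, and a gene at 1 TPM had a mean coverage per base between 4.73 and 4.99. Over members and libraries coverage ran from 2.11 (Derl3) to 3123 (Hsp90b1), with a median of 269, and 30 of the 32 members had a coverage of at least 20 in every library. Small and structural RNAs took 42.9%, 44.7% and 45.4% of TPM in chloride replicates 1 to 3, and 46.6% and 41.1% in propionate replicates 2 and 3. The TPM of every other gene moves with that share. Of 8 glioma and glial markers, 7 had a mean of at least 1 TPM. The summed level of the 8 was 5808 to 7415 TPM with chloride and 6402 to 7200 TPM with propionate. Nearly all of that sum was Vim (5472 to 7073 TPM with chloride, 6098 to 6841 TPM with propionate). Gfap stood at 3.22 to 6.59 TPM and Olig2 at 0.357 to 0.904 TPM over the 5 libraries. The markers of endothelial cells, neurons and T cells each summed to at most 0.293 TPM in any library, with Cdh5, Kdr, Rbfox3 and Snap25 at 0 in all 5. Among 5 markers of B and plasma cells, a lineage rich in ER proteins, only Sdc1 had a mean of at least 1 TPM. Their sum was 15.3 to 18.4 TPM with chloride and 24.1 to 29.2 TPM with propionate, and Jchain and Mzb1 were at or near 0. Of 6 myeloid markers only Lyz2 reached that mean (sum 10.8 to 12.2 TPM with chloride, 16.1 to 18.2 TPM with propionate), and Itgam was at 0. Of 5 fibroblast and pericyte markers 2 reached it, nearly all of the sum being Col3a1 (sum 131 to 144 TPM with chloride, 101 to 120 TPM with propionate), and Lum was at 0.

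None of the 32 ER genes passed the test of propionate against chloride, from the major chaperones Hspa5 and Hsp90b1 to the sensors and Xbp1. Changes are given on the log2(TPM + 1) scale, as propionate minus chloride, and lay between -0.21 for Hyou1 and 0.23 for Pdia6. The median change was -0.03, with 13 genes above 0 and 19 below, and the median over all 13881 tested genes was also -0.03. The median size of the change, without its sign, was 0.09 in the members and 0.14 over all tested genes.

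The test was limma's moderated linear model over all tested genes, two-sided, and a gene was called at an adjusted p (Benjamini-Hochberg, over all tested genes) under 0.05. It called 0 of the 32 members, where it called 1.82% of all tested genes (182 higher, 1.31%, and 70 lower, 0.504%). Members with an unadjusted p under 0.05 also numbered 0, where 16.8% of all tested genes lay under that value (7.93% higher and 8.90% lower). The count of members called stayed at 0 in each of 15 alternative analyses, where the lowest adjusted p of any member was 0.0771 (Pdia6, with TPM computed over protein-coding genes only). The counts over all genes were less stable. Over the alternatives the higher count lay between 2 (no minimum level) and 707 (voom), and the lower count between 1 (no minimum level) and 407 (TPM over protein-coding genes, where 588 were higher). Without propionate replicate 3, 8 genes were higher and 7 lower.

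How large a change these libraries leave room for can be read from the intervals of the fold changes. On the TPM + 1 scale of the test, the 95% interval lay within 1.5-fold in both directions for 31 of the 32 members, all but Derl3, and for 70.8% of all tested genes. With the pseudocount taken out, so that the fold is one of TPM, this held for 30 of the 32 members and for 59.0% of all tested genes. The exceptions were then Derl3 (0.404 to 2.27) and Manf (0.580 to 1.29), the members with the lowest levels. A missed threshold does not show that the levels were equal. Each interval rests on 3 and 2 libraries.

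**Figure D1:**
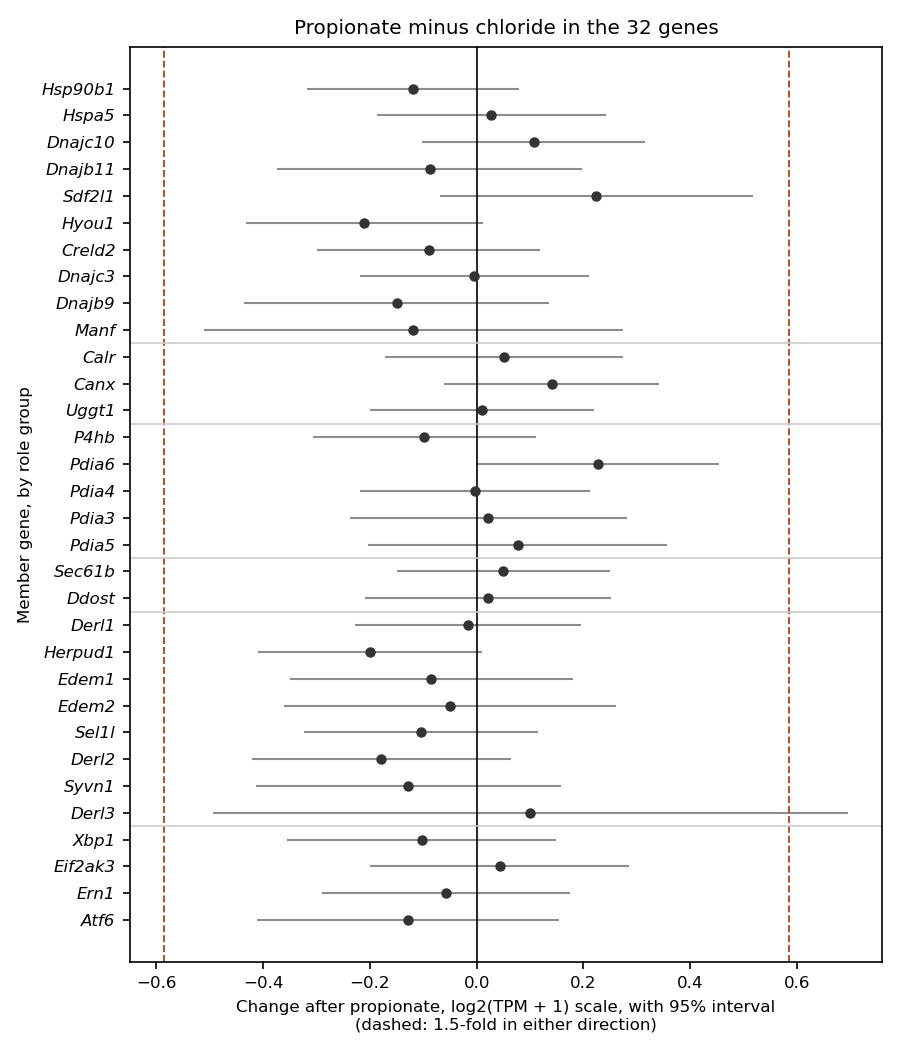
Change of each of the 32 genes after propionate on the log2(TPM + 1) scale, with its 95% interval from the model, ordered by role group and, within it, by mean level. On this scale, which narrows the intervals of low genes such as Manf and Derl3, those of 31 genes stay inside the dashed lines at 1.5-fold, and that of Derl3 crosses the line on the right.

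A feature shared by several of these genes is the ER stress response element in their promoters. The list names ER stress genes, so the share of members with this element is a description and not independent evidence. This element (ERSE) consists of CCAAT and CCACG parted by 9 bases of any kind: CCAAT is the site of the factor NF-Y, and CCACG is the site that Atf6 and Xbp1 are known to bind. In the RefSeq table of promoters (GRCm38.p6, 250 bases before to 50 bases after each start), 28 of the 32 members have an entry. Atf6, Derl1, Hyou1 and Manf are the others. Searched on both strands, ERSE occurred in 9 of the 28 members (Calr, Canx, Creld2, Derl3, Dnajc3, Hsp90b1, Hspa5, Pdia6 and Syvn1), against 37 of the table's 27025 genes (0.137%). On the strand of the gene alone, 6 members kept a match. The related ERSE-II, ATTGG and CCACG parted by 1 base of any kind, occurred in Herpud1 and Dnajb11, against 0.0444% of genes. The element TGACGTGG (UPRE) occurred in 0 of the 28 members, against 0.714% of genes. The short core CCACG, which is a part of ERSE and ERSE-II and overlaps TGACGTGG read on the other strand, occurred in 22 of the 28 members and in 35.5% of genes. A match is a string of letters, not a measured binding site, and an absent match says only that these letters are not in this window.

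The stretches below carry the match in capitals and show how alike the element is in 4 abundant members, beside ERSE-II of Herpud1. Each is written 5′ to 3′ on the strand of its gene, so that a match on the opposite strand reads CGTGG first and ATTGG last, as in Calr and in the element of Hsp90b1 that lies nearer to the start. Hsp90b1 carries 2 elements. The Hspa5 stretch is kept short because the Ensembl annotation starts an Hspa5 transcript further upstream and covers it.
Hspa5, chr2:34772020-34772048, + strand: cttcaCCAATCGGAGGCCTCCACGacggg
Hsp90b1, chr10:86705626-86705668, - strand: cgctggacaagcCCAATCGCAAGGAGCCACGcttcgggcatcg
Hsp90b1, chr10:86705521-86705563, - strand: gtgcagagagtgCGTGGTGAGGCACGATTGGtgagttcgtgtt
Calr, chr8:84847063-84847105, - strand: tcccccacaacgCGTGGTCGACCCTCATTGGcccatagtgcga
Pdia6, chr12:17266479-17266521, + strand: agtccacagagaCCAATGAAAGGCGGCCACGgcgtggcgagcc
Herpud1 (ERSE-II), chr8:94386365-94386399, + strand: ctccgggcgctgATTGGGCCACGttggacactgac

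Members with ERSE or ERSE-II numbered 11, and none passed the test, with a median change of -0.0042 and a range from -0.20 (Herpud1) to 0.23 (Pdia6). The 17 members in the table without either had a median of -0.0038, and also none passed. Outside the 2 ER lists, 17 tested genes carried ERSE or ERSE-II; none passed and their median was -0.0056. Genes with and without the letters therefore had medians close to 0 and to the -0.03 of all tested genes.

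The luminal chaperones, grouped with their helpers and other stress-regulated proteins, comprised 10 members, and 0 of them passed. Of their changes, 3 were above 0 and 7 below, with a median of -0.09. Hspa5 encodes BiP, the Hsp70 chaperone whose transcript is the usual readout of ER stress. Its level was 323, 302 and 317 TPM in chloride replicates 1 to 3 and 296 and 346 TPM in propionate replicates 2 and 3. The propionate values lay on either side of all 3 chloride values, the change was 0.03 ± 0.093 (SE), and the adjusted p from limma was 0.919. The interval of its fold, on the TPM + 1 scale, ran from 0.879 to 1.18. Hsp90b1, the ER member of the Hsp90 family (Grp94), had the highest level of the 32, at the 99.0th percentile of tested genes. It stood at 635, 573 and 583 TPM with chloride and 525 and 574 TPM with propionate. The second propionate value fell between the lowest chloride values, and the change was -0.12 ± 0.087 with a limma adjusted p of 0.539.

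Hyou1 encodes a large Hsp70-like protein that helps BiP exchange its nucleotide. It had the most negative change of the members, from 66.0, 59.6 and 58.0 TPM with chloride to 50.8 and 54.6 TPM with propionate. Both propionate values lay below all 3 chloride values, but the change of -0.21 ± 0.097 did not pass (limma adjusted p 0.326). Sdf2l1, which works with BiP and the J-protein Dnajb11, stood at 63.1, 59.2 and 65.6 TPM with chloride and 63.5 and 84.5 TPM with propionate. Only propionate replicate 3 was outside the chloride range, and the change was 0.22 ± 0.128 (limma adjusted p 0.421).

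Dnajb9 (ERdj4), a J-protein that restrains Ire1 and is among the transcripts raised by spliced Xbp1, stood at 7.12, 6.79 and 7.30 TPM with chloride and 5.65 and 6.96 TPM with propionate. The groups overlapped, and the change was -0.15 ± 0.124 (limma adjusted p 0.598). The other J-proteins and stress-regulated luminal proteins had changes from -0.12 to 0.11. These were Dnajc10, Dnajb11, Dnajc3, Creld2 and Manf. Their mean levels ran from the 14.5th percentile of tested genes for Manf to the 92.9th for Dnajc10. Manf, a small secreted protein of the stress response, stood at 1.99 to 2.78 TPM over the 5 libraries, and this value is uncertain. An assembled transcript of 56 exons, counted in the neighbouring gene Dock3, covers 3092 of the 4369 exon bases of Manf and was given 8.47 to 10.7 TPM. The change of Manf, -0.12 in the model, was -0.43 with voom (adjusted p 0.413).

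**Figure D2:**
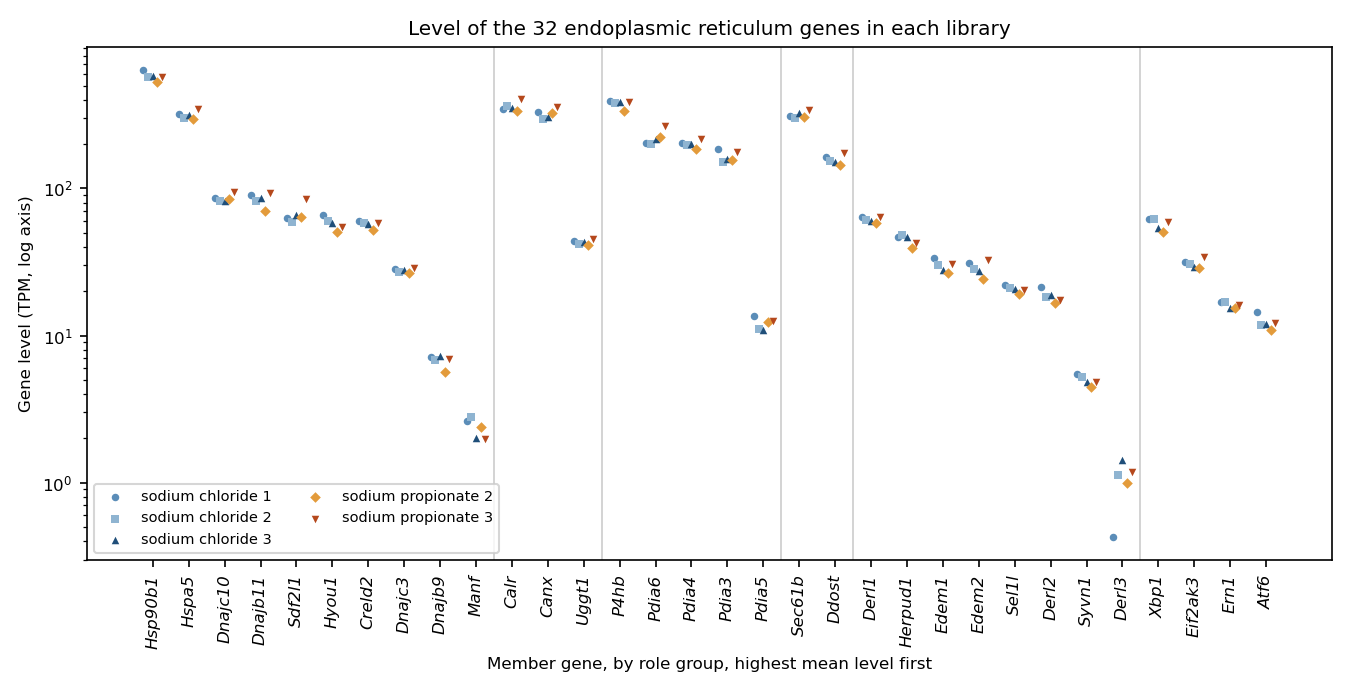
Level of each of the 32 genes in each library, in TPM on a log axis, with grey lines between the role groups (chaperones, lectin chaperones, disulfide isomerases, translocation and glycosylation, ER-associated degradation, sensors with Xbp1) and genes ordered by mean level within a group. The groups differ little beside the spread of levels between genes, from Derl3 near 1 TPM to Hsp90b1 between 525 and 635 TPM.

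The lectin chaperones and the glycan sensor hold glycoproteins in the folding cycle. None of the 3 passed, and all 3 changes were above 0, with a median of 0.05. Calr encodes calreticulin, the soluble lectin, and stood at 349, 361 and 350 TPM with chloride and 333 and 402 TPM with propionate. Its propionate values lay on both sides of the chloride range, and the change was 0.05 ± 0.097 (limma adjusted p 0.846; fold interval 0.888 to 1.21). Canx encodes calnexin, the membrane-bound lectin, at 328, 295 and 304 TPM with chloride and 327 and 355 TPM with propionate. The groups overlapped by chloride replicate 1 only, and the change was 0.14 ± 0.088 (limma adjusted p 0.462). Uggt1, which puts a glucose back on misfolded glycoproteins so that they bind the lectins again, had a change of 0.01.

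The disulfide isomerases make and rearrange disulfide bonds. Of their 5 members 0 passed, with 3 changes above 0, 2 below and a median of 0.02. Pdia6, an isomerase that also acts on Ire1 and Perk, had the smallest p of the 32. It stood at 204, 201 and 217 TPM with chloride and 222 and 265 TPM with propionate. Both propionate values lay above all chloride values, but propionate replicate 2 did so by little, and the change of 0.23 ± 0.099 did not pass (limma adjusted p 0.297; range over the alternatives 0.0771 to 0.604). P4hb, the classical protein disulfide isomerase, stood at 394, 378 and 385 TPM with chloride and 334 and 389 TPM with propionate. Only propionate replicate 2 was outside the chloride range, and the change was -0.10 ± 0.091 (limma adjusted p 0.645). Pdia3, the partner of the lectins, Pdia4 and Pdia5 had changes of 0.02, -0.0038 and 0.08.

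Entry and glycosylation were represented by 2 members, of which 0 passed. Sec61b, the small beta subunit of the Sec61 channel, stood at 312, 302 and 328 TPM with chloride and 308 and 343 TPM with propionate. The groups overlapped, with a change of 0.05 ± 0.087 (limma adjusted p 0.830). Ddost, a subunit of the oligosaccharyltransferase that adds the N-linked glycan, stood at 163, 154 and 150 TPM with chloride and 144 and 173 TPM with propionate. Its propionate values lay on both sides of the chloride range, and the change was 0.02 ± 0.101 (limma adjusted p 0.946).

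ER-associated degradation had 8 members, and 0 passed; 7 changes were below 0 and 1 above, with a median of -0.09. Herpud1, a membrane protein that gathers the degradation complex, stood at 47.0, 48.1 and 46.4 TPM with chloride and 39.1 and 42.9 TPM with propionate. The 2 groups did not overlap, and the change of -0.20 ± 0.091 did not pass (limma adjusted p 0.319; range over the alternatives 0.0826 to 0.683). Derl2, a channel component, stood at 21.2, 18.2 and 18.9 TPM with chloride and 16.6 and 17.4 TPM with propionate. Here too the groups did not overlap, with a change of -0.18 ± 0.106 (limma adjusted p 0.438). Sel1l, the adaptor of the ubiquitin ligase Syvn1, had a change of -0.10, and its propionate values of 19.2 and 20.3 TPM lay just below the chloride range, which began at 20.8 TPM. Syvn1 itself had a change of -0.13, and the mannosidase-like Edem1 and Edem2, which mark glycoproteins for disposal, had changes of -0.08 and -0.05. Derl1 had a change of -0.02. Derl3 had the lowest level of the members, at 0.430, 1.13 and 1.43 TPM with chloride and 1.00 and 1.18 TPM with propionate, and both propionate values fell within the chloride range (change 0.10 ± 0.259, limma adjusted p 0.891). Values this low rest on little coverage.

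Counted over all 32 members, the 2 groups did not overlap for 5 genes, which were Pdia6 above and Hyou1, Herpud1, Sel1l and Derl2 below. The same holds for 34.6% of all tested genes (14.8% higher and 19.7% lower), a larger share than 5 of 32. With TPM computed over protein-coding genes only, the members whose groups did not overlap numbered 13 (3 higher, 10 lower). The share was 45.0% of the 11285 protein-coding genes tested (20.6% higher and 24.4% lower). The 5 genes were among these 13, joined by Canx and Dnajc10 above and Atf6, Creld2, Dnajb9, Hsp90b1, P4hb and Syvn1 below.

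The sensors and Xbp1 decide whether the response is on. Of these 4 members 0 passed, and 3 changes were below 0 and 1 above. Ern1 (Ire1, a kinase and RNase) stood at 17.0, 17.0 and 15.4 TPM with chloride and 15.4 and 16.2 TPM with propionate, with a change of -0.06 ± 0.101 (limma adjusted p 0.836). Eif2ak3 (Perk, the kinase that slows translation) stood at 31.4, 30.6 and 29.4 TPM with chloride and 28.8 and 34.3 TPM with propionate, with a change of 0.04 ± 0.106 (limma adjusted p 0.884). Atf6, a membrane-tethered transcription factor released by cleavage, stood at 14.5, 11.8 and 11.9 TPM with chloride and 10.9 and 12.2 TPM with propionate, with a change of -0.13 ± 0.123 (limma adjusted p 0.657). In each of the 3 sensors the groups overlapped. These are transcript levels; kinase activity, RNase activity and cleavage were not measured by this assay.

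Xbp1 stood at 61.7, 62.3 and 53.9 TPM with chloride and 50.9 and 59.4 TPM with propionate. The groups overlapped, and the change was -0.10 ± 0.110 (limma adjusted p 0.696). Active Ire1 removes a short intron of 26 bases from Xbp1 mRNA, which shifts the reading frame and yields the active factor. The merged annotation holds a transcript of Xbp1, assembled from the reads, that lacks 26 bases on chromosome 11 of mm10, from 5524278 to 5524303. Because the sequence repeats at the borders of the gap, 7 placements give the same RNA, and the placement usually described for Ire1 (5524282 to 5524307) is one of them. An Ensembl transcript also has a gap of 26 bases, but 8 bases upstream of the assembled one; it gives another RNA and was listed at 0 in all 5 libraries. The stretch chr11:5524258-5524327 on the + strand, inside the coding part of Xbp1, shows the bases each model leaves out in capitals.
Assembled model: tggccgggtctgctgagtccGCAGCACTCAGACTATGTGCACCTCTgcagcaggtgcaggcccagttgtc
Usual placement, same RNA: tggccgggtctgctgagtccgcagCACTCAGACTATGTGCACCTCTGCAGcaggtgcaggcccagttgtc
Ensembl model, other RNA: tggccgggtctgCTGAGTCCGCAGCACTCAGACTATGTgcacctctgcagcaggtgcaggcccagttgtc

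The assembled model without the 26 bases was given 36.3, 31.5 and 30.5 TPM in the chloride libraries and 32.8 and 33.8 TPM in the propionate libraries. Its propionate values lay within the chloride range. The longest reference model, which keeps the 26 bases, was given 15.3, 16.3 and 15.1 TPM with chloride and 5.17 and 18.0 TPM with propionate, so that propionate replicate 2 was far below the other libraries. There the 2 other reference models that keep the bases were at 10.96 TPM, against 6.32, 10.6 and 5.69 TPM with chloride and 5.87 TPM in propionate replicate 3. As a percentage of the models that cover the site, the model without the bases made up 62.6%, 53.9% and 59.4% with chloride and 67.0% and 58.6% with propionate. The means were 58.6% ± 4.42 (SD, n = 3) and 62.8% ± 5.96 (SD, n = 2), and the groups overlapped. StringTie divides reads between models that share exons, so these shares are estimates over whole transcripts and not counts of reads across the junction. The models also begin at different bases, the assembled one at 5521005 and the longest reference one at 5520659. Their split therefore need not rest on the 26 bases alone. They were not tested.

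**Figure D3:**
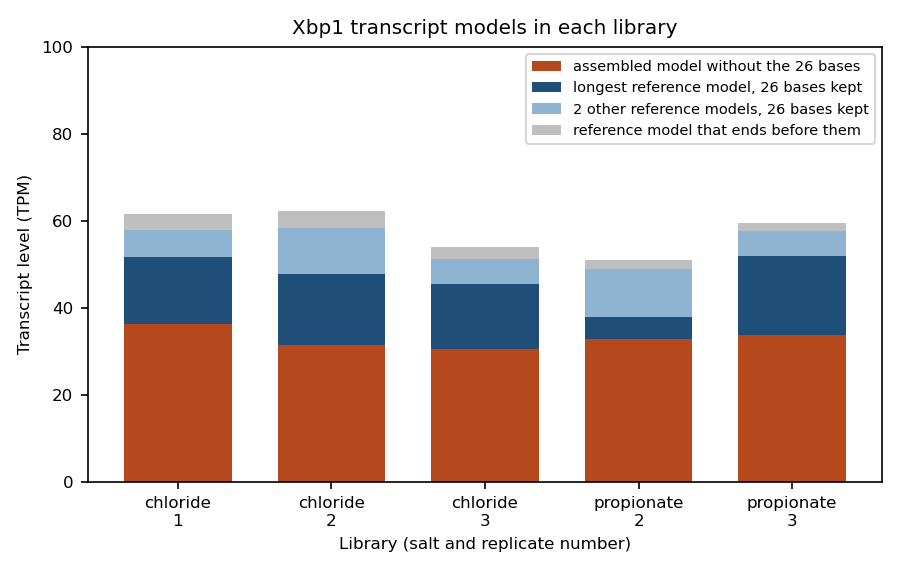
TPM of the Xbp1 transcript models in each library, stacked to the total of the gene. The model without the 26 bases stands between 30.5 and 36.3 TPM in all 5 libraries, and the longest model that keeps them is lowest in propionate replicate 2, at 5.17 TPM.

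Transcript models exchanged coverage in other members too. The members have 173 transcripts in the files, of which 86 reached 1 TPM in at least 1 library and 21, in 14 genes, were assembled from the reads. The assembled share of a gene differed between libraries of the same group, from 34.3% to 96.2% within the chloride group for Atf6, and from 5.18% to 59.7% for Pdia3. For this reason the gene is described by the sum of its transcripts. Sums over reference transcripts alone also called 0 members, but gave other changes for Atf6 (-0.70), Pdia3 (0.50), P4hb (0.39), Hyou1 (-0.47), Hsp90b1 (-0.29) and Xbp1 (-0.28).

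The summed level of the 32 genes was 3906, 3681 and 3755 TPM in chloride replicates 1 to 3 and 3534 and 4061 TPM in propionate replicates 2 and 3, so the 2 propionate libraries bracketed the controls. Propionate replicate 3 was above propionate replicate 2 in 31 of the 32 members, and in 75.0% of all tested genes. With TPM over protein-coding genes this held for 18 of the 32 members and for 50.3% of the protein-coding genes tested. Protein-coding genes held 45.2% and 50.3% of TPM in propionate replicates 2 and 3. As a share of the protein-coding total, the 32 genes made up 0.795%, 0.772% and 0.803% with chloride and 0.781% and 0.808% with propionate. The group means of that share, 0.790% ± 0.0164 (SD, n = 3) and 0.795% ± 0.0186 (SD, n = 2), differed by less than the spread within either group.

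**Figure D4:**
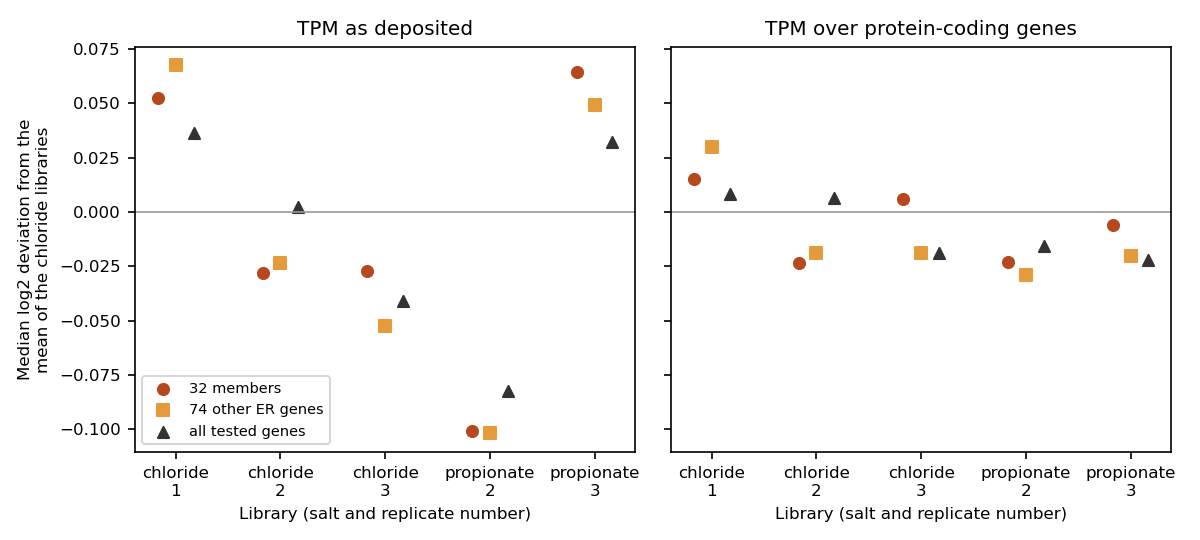
Median log2 deviation of the 32 members, of 74 other ER genes and of all tested genes from the mean of the chloride libraries, in each library, with TPM as deposited (left) and with TPM over protein-coding genes (right). On the left the members' median is -0.101 in propionate replicate 2 and 0.0643 in propionate replicate 3, and on the right it is -0.0229 and -0.0059.

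A wider list of 75 other genes of the same compartment gave a similar account, with 74 tested and 0 called. Only Wfs1 was below the minimum level. Unadjusted, 2 were higher and 3 lower with a p under 0.05; 30 changes were above 0 and 44 below, and the median was -0.04. By role, the median change was 0.02 in 14 genes of the translocon and signal peptide processing and -0.01 in 10 of the oligosaccharyltransferase and glycan trimming. It was -0.03 in 17 genes of folding and redox, -0.09 in 16 of degradation and -0.08 in 14 of other stress signalling. The 3 ER retrieval receptors had a median of 0.0072.

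The smallest p belonged to Kdelr3, one of 3 receptors that return escaped chaperones from the Golgi to the ER by their carboxyl-terminal signal. It stood at 20.4, 19.2 and 20.02 TPM with chloride and 25.4 and 32.5 TPM with propionate. The groups did not overlap, the change was 0.51 ± 0.121, and the adjusted p from limma was 0.0794. It passed in 3 of the 15 alternatives (0.0348 with median-of-ratios scaling, 0.0130 with TPM over protein-coding genes and 0.0184 with voom), and over all 15 the adjusted p lay between 0.0130 and 0.251. Kdelr2 went the other way, from 57.9, 50.5 and 50.5 TPM with chloride to 43.8 and 49.5 TPM with propionate. Its groups did not overlap either (change -0.18 ± 0.106, limma adjusted p 0.440). Kdelr1 had a change of 0.0072. The promoter of Kdelr3 holds TGACGTGG, on the opposite strand only. Of the 56 other ER genes in the promoter table, 6 hold it on either strand and 3 on their own strand, against 0.714% and 0.377% of all genes. Beside Kdelr3 these were Txndc11 (change -0.17), Vcp (-0.16), Txndc5 (0.0042), Ube2j1 (0.0025) and Nfe2l1 (0.13), and none passed.

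Ufd1, which helps pull degraded chains out of the membrane, stood at 34.2, 28.3 and 30.6 TPM with chloride and 24.4 and 25.8 TPM with propionate (change -0.29 ± 0.108, limma adjusted p 0.226). Selenos, a selenoprotein of the degradation complex, stood at 48.8, 45.4 and 47.7 TPM with chloride and 36.8 and 42.3 TPM with propionate (change -0.26 ± 0.0993, limma adjusted p 0.246). In both genes the propionate values lay below all chloride values. Selenos passed with TPM over protein-coding genes, at 0.0488, and its range over the alternatives was 0.0488 to 0.603. Tmbim6 stood at 183, 186 and 168 TPM with chloride and 197 and 231 TPM with propionate (change 0.25 ± 0.0992, limma adjusted p 0.249). Its groups did not overlap, and it passed in 2 of the 15 alternatives (adjusted p 0.0339 to 0.496). Erp44 stood at 60.2, 53.3 and 54.9 TPM with chloride and 44.5 and 49.9 TPM with propionate (change -0.24, limma adjusted p 0.270). Its groups did not overlap either, but it passed in none of the alternatives.

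Downstream of Perk, Ddit3 (Chop, a factor of the terminal response) stood at 47.1, 44.4 and 49.7 TPM with chloride and 50.4 and 56.0 TPM with propionate, with a change of 0.17 ± 0.0978 (limma adjusted p 0.417). Both propionate values lay above the chloride values, the lower one by less than 1 TPM. The size of this change depended on the processing, at 0.0093 with voom and 1.20 over reference transcripts only, and passed in none of the alternatives. Trib3, a target of Chop and Atf4, stood at 8.19, 7.76 and 8.95 TPM with chloride and 6.59 and 9.48 TPM with propionate, on both sides of the chloride range (change -0.06 ± 0.153, limma adjusted p 0.892). Leaving out propionate replicate 2 gave a change of 0.17, and leaving out replicate 3 gave -0.29. Atf4 itself was listed at 25.3, 17.5 and 5.67 TPM with chloride and 25.7 and 24.6 TPM with propionate (change 0.82 ± 0.471, limma adjusted p 0.425), with chloride replicate 3 far below the other 4 libraries. Without chloride replicate 3 the change was 0.24, and without chloride replicate 1 it was 1.23, and neither passed. An assembled transcript counted in the neighbouring gene Mief1 covers 3537 of the 4170 exon bases of Atf4, at 28.4, 31.4 and 33.9 TPM with chloride and 19.8 and 26.3 TPM with propionate. The level of Atf4 is therefore uncertain in these files.

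**Figure D5:**
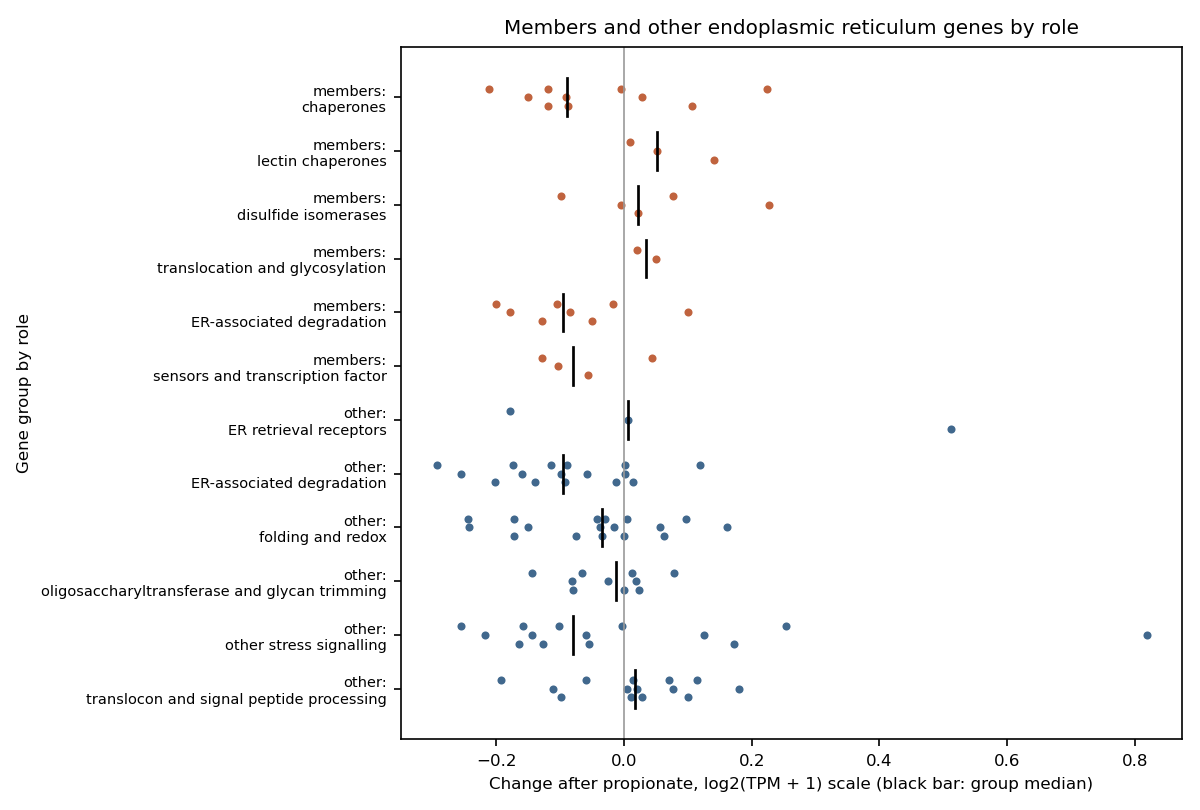
Change after propionate on the log2(TPM + 1) scale of each gene, as 1 point, for the 32 members (orange, 6 role groups) and the 74 other ER genes (blue, 6 role groups), with the median of each group as a black bar. Medians of the member groups lie between -0.09 and 0.05, and the 2 points farthest to the right are Kdelr3 at 0.51 and Atf4 at 0.82.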

How the data were processed

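Per the labels' protocols, an RNeasy Mini plus kit gave total RNA, and TruSeq Stranded Total RNA LT (Gold) libraries were made from it. HISAT2, fastp, bcl2fastq, StringTie and the build mm10 are named in the submitters' processing notes. Per the file headers, StringTie 2.1.1 estimated TPM, FPKM and coverage for the transcripts of one merged annotation, with no strand option, so overlapping or antisense genes cannot be told apart where unspliced. The authors deposited these TPM, FPKM and coverage values and no read counts.

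Gene TPM was the sum over a gene's reference transcripts (named through GENCODE M21) and assembled transcripts of the same locus and strand that overlap its exons. Genes with a mean of at least 1 TPM went into limma 3.58.1 (R 4.3.3; a linear model with moderated, trended variances) on log2(TPM + 1), a pseudocount of 1 that understates the change of low genes. The script was tested on simulated data. In an exact permutation test of a single gene, 3 against 2 libraries cannot give a p under 0.1. Same-numbered libraries did not deviate together and no pairing was used, but with 2 propionate libraries this check cannot exclude pairing. No libraries held identical values.

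The members and lists were chosen with earlier results of these data known. All members are accounted for. Values in every library are given for the 2 smallest p of each role group, for Hspa5, Hsp90b1, Calr, Xbp1, Atf6, Ern1, Eif2ak3, Herpud1 and Dnajb9, and for the highest and lowest level. Of the other ER genes the 3 smallest p and Ddit3, Atf4 and Trib3 were to be named. Kdelr1, Kdelr2, Tmbim6, Erp44 and the holders of TGACGTGG were added afterwards. Propionate replicate 1 was not analysed here.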

Additional observations from a re-analysis of the deposited data

How the results depend on the processing

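No alternative called a member: of 15, all gave 0 of the members tested (29 of 32 with a minimum of 5 TPM, 32 otherwise). Of 477 member changes in these alternatives, 436 had the sign given above and 41 the other, and 15 members kept 1 sign throughout. The members' median change ran from -0.101 (without propionate replicate 3) to 0.0643 (without propionate replicate 2) when 1 library was left out. The counts over all genes, 182 higher and 70 lower, moved more. They were 2 and 1 with no minimum level, 336 and 154 with median-of-ratios scaling, 588 and 407 with TPM over protein-coding genes, 5 and 6 over reference transcripts only and 707 and 358 with voom on aligned bases. The lower count was 106 with FPKM and 30 without a trend. With 1 library left out they ranged from 8 to 126 and from 7 to 46, lowest without propionate replicate 3. A group then had as few as 1 library, assumed to vary like the others. Of the other ER genes, 1 was higher with median-of-ratios scaling, 2 higher and 1 lower with TPM over protein-coding genes, and 2 higher with voom. The cause of these differences was not tested.

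The deviations of same-numbered libraries correlated at -0.22 and -0.20 across genes. With 2 propionate libraries, whose deviations mirror each other, this cannot show whether the replicate numbers pair the libraries. With the replicate number as a block, 0 members, 264 genes higher and 104 lower were called, and 1 other ER gene was higher (Atf4, change 1.23, limma adjusted p 0.00507). Chloride replicate 1 has no propionate library of its number, so the changes in this fit rest on replicates 2 and 3. That of Atf4 equals its change without chloride replicate 1. The level of Atf4 is uncertain, as described above, with chloride replicate 3 at 5.67 TPM. Among the Xbp1 models, the mean share without the 26 bases was 4.14 percentage points higher with propionate, and 8.13 points higher over the assembled and the longest model alone, a choice made after seeing the data. Over those models alone the share was 70.3%, 65.8% and 66.8% with chloride. It was 86.4% and 65.2% in propionate replicates 2 and 3, on both sides of the chloride range. Coverage limits Derl3 and Manf most. No depth in reads is known, so no interval for counting error is given.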
